A study of Mus musculus with 4 samples.

Results

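The genes described here are 39 genes of the mouse that are known to be imprinted, taken as a list of symbols and measured in the prelimbic cortex of adult male mice. A gene counted as measured when the platform annotation gave at least 1 probe set to its symbol alone, which held for 34 of the 39, out of 18193 genes measured in all. No probe set of its own was available for H19, Rtl1, Dio3, Peg13 and Zrsr1, and they were not analysed here. Another 8 probe sets named a member together with a further gene and were not used. Where a gene had several probe sets, the one with the highest mean over the 4 arrays stood for it, and the others served as a check.

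RNA came from tissue punches of the medial prefrontal cortex taken on postnatal day 90 and was hybridised to Affymetrix 3' expression arrays. One group, of 2 arrays, came from males exposed to fluoxetine before birth, and the other, also of 2 arrays, from untreated control males. Fluoxetine is an antidepressant that blocks the reuptake of serotonin. The dose, the days of exposure, the mouse strain, the litters and any pooling of animals are not given in the sources used here, and p-values therefore measure only the spread between these arrays. All values are log2 intensities, in which a step of 1 is a doubling of the signal. Each difference is given as fluoxetine minus untreated, between the means of the 2 arrays.

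An imprinted gene is read mainly from the copy inherited from the mother or mainly from the copy inherited from the father. The choice is set by DNA methylation laid down in the germ line at imprinting control regions, and it is kept through development by proteins such as ZFP57 and TRIM28. Imprinted genes sit in clusters, and many clusters pair protein-coding genes with long noncoding RNAs, some of which host small nucleolar RNAs or microRNAs. In brain they are known for roles in growth, feeding, maternal care and synaptic plasticity, and UBE3A and the SNRPN region underlie Angelman and Prader-Willi syndromes. These arrays cannot tell the parental copies apart, so every value is the sum over both.

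Prelimbic tissue was checked first. The 7 measured markers of cortical neurons lay between 9.46 and 14.53 on every array. Striatal neuron markers stood apart on untreated replicate 2, where the mean over 10 genes was 9.78 against 8.55 and 8.88 on the fluoxetine arrays and 8.71 on untreated replicate 1. Oligodendrocyte markers had a mean of 11.21 on that array and of 10.95 to 10.97 on the others. At an unadjusted p below 0.05 in limma, 2 of 9 were lower, Sox10 and Mag, and 0 higher. Above the median level of all genes, where all 9 lay, 2.17% were lower. Of 7 astrocyte markers 2, Gjb6 at 0.30 and Slc1a3 at 0.21, were higher by that p and 0 lower. At that level, where 6 of the 7 lay, 5.73% of genes were higher. The part of these markers in the results was not tested. Poly-A control transcripts, which are added to the RNA before labelling, were higher on the fluoxetine arrays for 25 of 27 probe sets, by a median of 0.24. In bulk tissue, fewer cells of a type and less RNA per cell cannot be told apart. With 2 arrays against 2, an exact two-sided permutation test cannot give a p below 0.333.

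Most imprinted genes had nearly the same signal in both groups, and 31 of the 34 differed by less than 1.2-fold. The noncoding RNAs Ipw and Mirg and the ubiquitin ligase gene Ube3a were higher with fluoxetine, and Asb4, at a dim probe set, was lower. These 4 had an unadjusted p below 0.05 in limma, which 6.96% of all genes had. By direction, 3 of 34 were higher against 3.45% of all genes, and 1 of 34 was lower against 3.51%. Over all genes 628 were higher and 638 lower, a split that became 571 to 1103 after a second quantile normalization and 846 to 427 after subtraction of array medians. None of the 34 passed Benjamini-Hochberg adjustment over all genes (limma, lowest adjusted p = 0.635, for Ipw), and the share of all genes that passed was 0%. The median difference was 0.012 over the members and -0.020 over all genes. Both fluoxetine arrays lay above both untreated arrays for 9 members, against 15.5% of all genes, and below them for 6, against 22.3%. No test was made over the list. Without untreated replicate 2, the array with high striatal markers, these 4 still had an unadjusted p below 0.05, and Rian joined them, lower, at an unadjusted p of 0.0314.

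**Figure D1:**
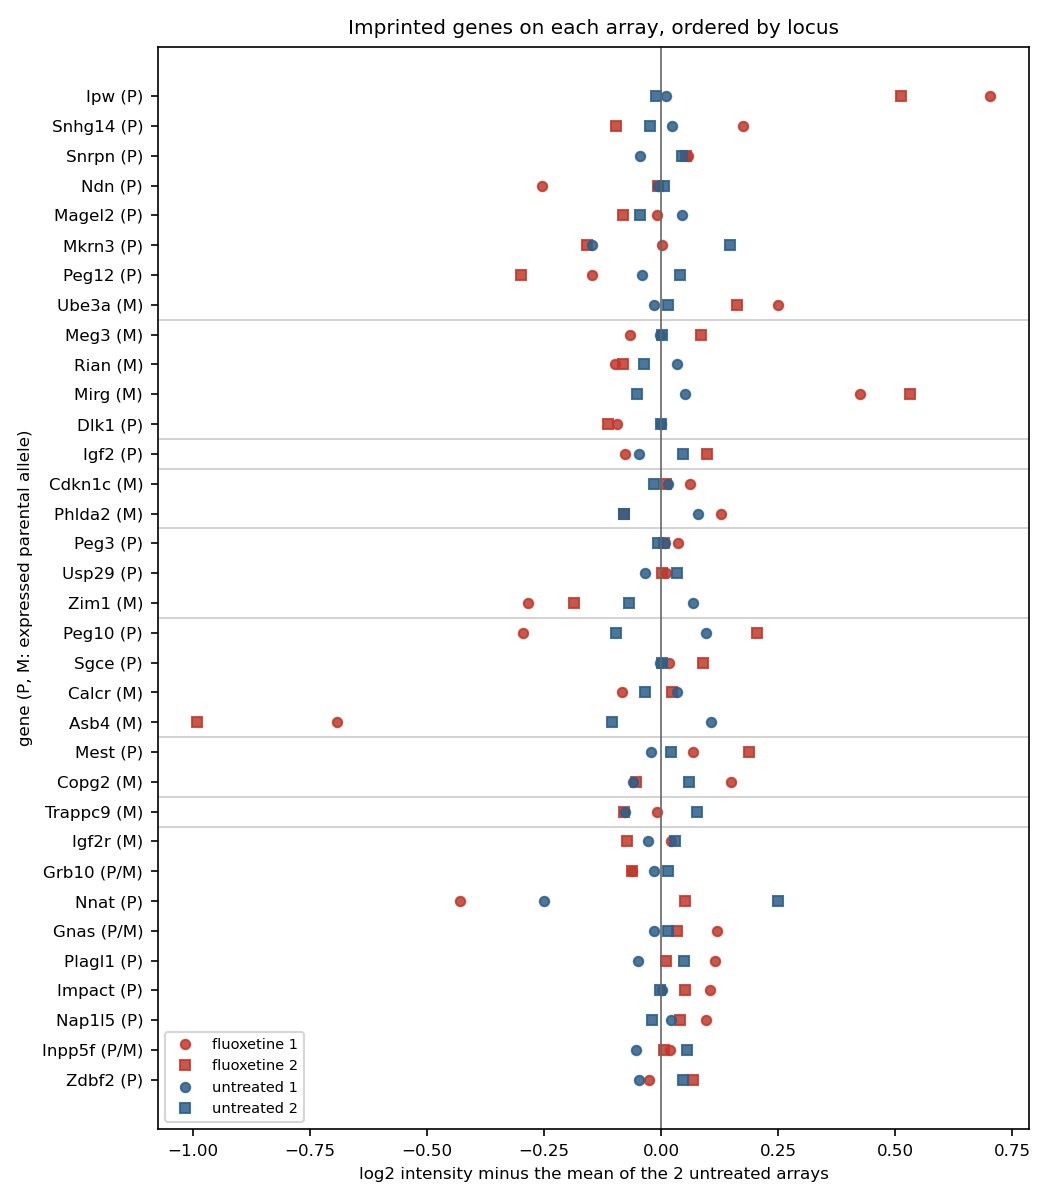
Each row is an imprinted gene and each point 1 array, plotted as the log2 intensity minus the mean of the 2 untreated arrays. Circles stand for replicate 1 and squares for replicate 2. Grey lines separate loci, and those with 1 listed gene, called single-gene loci here, come last. The 2 fluoxetine points of Ipw and Mirg lie to the right of the untreated points and those of Asb4 to the left, while 26 of the 34 genes have all 4 arrays within 0.25 of 0.

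The direction of a difference went with the brightness of the probe set among all genes, and the split among the members ran in the same direction. All genes above the median level of 7.87 had a median difference of 0.0031, with 5.73% higher and 2.17% lower by that p. Genes at or below it had a median of -0.069, with 107 of 9097 higher and 441 lower. Of the 25 members above that level 19 had a difference above 0, against 4722 of 9096 genes. The median over these 25 was 0.036. Both fluoxetine arrays were above for 9 of these 25, against 21.8% of all genes at that level, and below for 2, against 16.9%. Of the 9 members at or below that level 1 had a difference above 0, against 3007 of 9097 genes. The median over these 9 was -0.078. After a second quantile normalization the counts above 0 were 12 of 25 and 4 of 9, and without untreated replicate 1 they were 14 of 25 and 4 of 9.

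**Figure D2:**
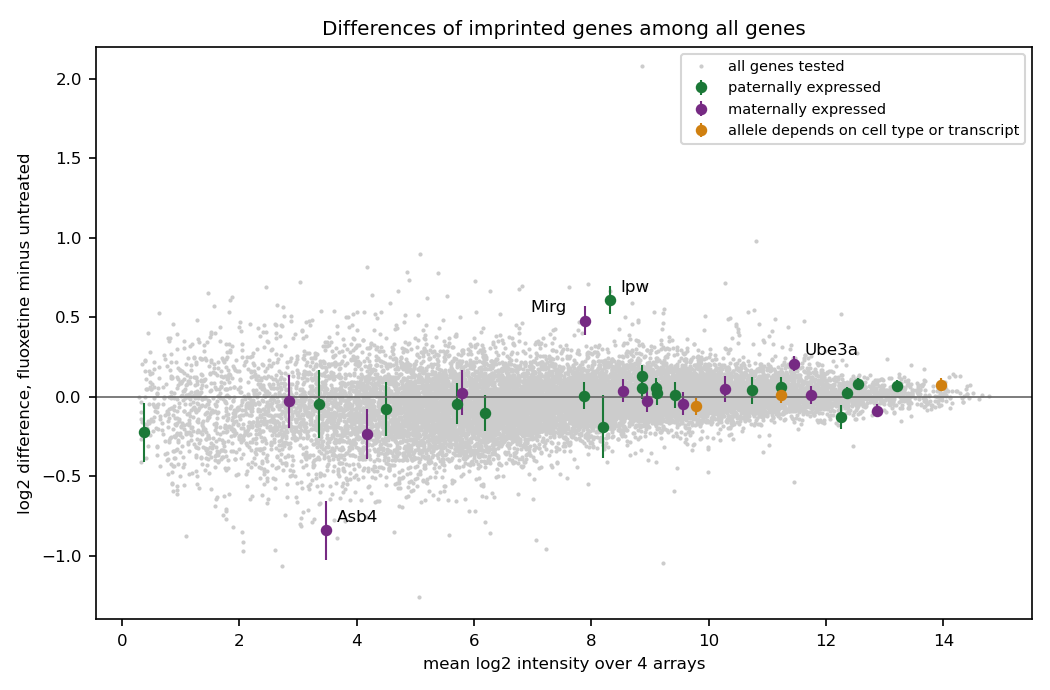
Each grey dot is 1 of 18193 genes, with its mean log2 intensity over 4 arrays on the horizontal axis and its log2 difference on the vertical axis; coloured points are the imprinted genes by the parental copy expressed, with bars of 1 standard error from limma. Ipw at 0.61, Mirg at 0.48 and Ube3a at 0.21 stand above 0 and Asb4 at -0.84 below it.

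The sequences at the annotated starts of the 3 noncoding RNAs that the results turn on, and of Ube3a, differ in their number of CpG dinucleotides. Whether these windows act as promoters or carry an imprint was not tested. They are from RefSeq, build GRCm38.p6, written 5' to 3' on the strand of the gene with each CpG in capitals. They cover 250 bases before to 50 after the start, or for Ube3a the 250 bases before it only. The window of Ipw lies at chr7:59678829-59679128 (minus strand). That of Mirg lies at chr12:109734731-109735030, the first of 2 tabled for Meg3 at chr12:109540746-109541045 and that of Ube3a at chr7:59228500-59228749 (all plus strand).
Ipw: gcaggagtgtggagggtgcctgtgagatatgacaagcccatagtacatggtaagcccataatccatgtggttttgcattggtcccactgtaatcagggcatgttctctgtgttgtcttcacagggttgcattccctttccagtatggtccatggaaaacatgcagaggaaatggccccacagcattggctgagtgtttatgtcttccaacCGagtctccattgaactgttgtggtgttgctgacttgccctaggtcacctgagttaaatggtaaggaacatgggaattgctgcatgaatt
Mirg: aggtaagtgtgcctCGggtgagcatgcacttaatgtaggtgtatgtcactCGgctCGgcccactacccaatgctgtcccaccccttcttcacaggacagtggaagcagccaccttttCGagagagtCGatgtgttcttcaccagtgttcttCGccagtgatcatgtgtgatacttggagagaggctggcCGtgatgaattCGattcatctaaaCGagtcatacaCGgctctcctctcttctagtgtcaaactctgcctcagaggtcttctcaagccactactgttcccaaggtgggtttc
Meg3: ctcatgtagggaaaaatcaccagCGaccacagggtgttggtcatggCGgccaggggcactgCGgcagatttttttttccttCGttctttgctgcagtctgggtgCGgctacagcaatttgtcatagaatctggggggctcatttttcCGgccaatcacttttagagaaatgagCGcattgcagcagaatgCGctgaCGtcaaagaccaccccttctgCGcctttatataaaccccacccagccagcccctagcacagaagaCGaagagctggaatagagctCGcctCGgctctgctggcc
Ube3a: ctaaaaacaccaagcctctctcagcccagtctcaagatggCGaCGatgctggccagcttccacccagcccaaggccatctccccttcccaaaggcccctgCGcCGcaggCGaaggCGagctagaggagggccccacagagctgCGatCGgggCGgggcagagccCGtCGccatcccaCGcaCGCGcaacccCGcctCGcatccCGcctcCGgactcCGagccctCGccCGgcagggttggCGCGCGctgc
These windows hold 1 CpG for Ipw, 10 for Mirg, 13 for Meg3 and 24 for Ube3a. Over the 47 tabled promoters of 31 members the median was 14 CpG in 300 bases, against 7 over all 32851 tabled promoters. The letters TGCCGC, which ZFP57 binds when methylated, were searched on both strands. They occurred in 13 of the 47 member promoters (27.7%) and in 11.6% of all promoters, and among the windows above only in that of Meg3. The letters include a CpG, and the shares were not matched for CpG number. Overlapping windows, as at Mest, were counted separately, and a window shared by Snrpn and Snhg14 was counted for each. The 47 include windows of Dio3 and Zrsr1, which were not measured. A match describes letters and not a bound site.

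The Snrpn-Ube3a locus, that of Prader-Willi and Angelman syndromes, had all 8 of its members measured. Their median difference was -0.0028, with 2 members higher and 0 lower by an unadjusted p below 0.05, against 3.45% and 3.51% of all genes. Ipw, a paternally expressed noncoding RNA between Snrpn and Ube3a, read 8.72 and 8.53 on the fluoxetine arrays and 8.03 and 8.01 on the untreated arrays. The groups did not overlap, and the gap between them was wider than that between the fluoxetine arrays. The difference was 0.61 (SE 0.090), a 1.52-fold higher signal (limma, adjusted p = 0.635). Ipw had this probe set only, and its difference was 0.51 to 0.70 when any array was left out. Cortical neuron markers had means of 11.81 and 11.67 with fluoxetine and 11.65 and 11.63 without. Of these 2 of 7, Fezf2 and Neurod6, were higher at an unadjusted p below 0.05, against 3.45% of all genes. All 7 lay above the median level, where the share was 5.73%. Snap25 and Tbr1 differed by 0.073 and 0.064, Slc17a7 by 0.010, Rbfox3 by -0.0070 and Camk2a by -0.027. The part of these markers in the results of this locus was not tested.

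Ube3a encodes a ubiquitin ligase and is read from the maternal copy in neurons. It read 11.60 and 11.51 with fluoxetine against 11.34 and 11.37 without. Both fluoxetine arrays were higher, by 1.15-fold on average (difference 0.21, SE 0.049; limma, adjusted p = 0.696). Its other 5 probe sets were dimmer, with differences from -0.14 to 0.42, and 3 of the 6 had groups that did not overlap, all higher with fluoxetine, against 19.9% of all single probe sets, while 20% of those were lower in this sense. When all 6 were averaged, the difference was 0.17 and the unadjusted p was 0.109.

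Snhg14 is the long paternal transcript that hosts the small nucleolar RNAs of the locus and runs into Ube3a on the opposite strand. Its brightest probe set read 10.90 and 10.63 with fluoxetine and 10.75 and 10.70 without. The groups overlapped there, and the difference was 0.039 (SE 0.086), or -0.096 without fluoxetine replicate 1 and -0.00093 after a second quantile normalization. A dimmer probe set read 3.999 and 3.70 against 3.39 and 3.20, a difference of 0.55. Snhg14 and Ipw were both highest on fluoxetine replicate 1, as was Ube3a.

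The protein-coding paternal genes of the locus showed no such shift. Snrpn, a component of the splicing machinery, read 8.90 on both fluoxetine arrays and 8.80 and 8.89 on the untreated arrays. Its groups did not overlap, but the difference of 0.055 (SE 0.070) was less than its standard error. A further 6 probe sets shared by Snrpn with Snurf were not used. Ndn, which encodes the MAGE protein necdin, read 12.07 and 12.31 with fluoxetine and 12.31 and 12.33 without. Its low value was that of fluoxetine replicate 1, and the difference was -0.13 (SE 0.076), against -0.093 to 0.038 for its other 4 bright probe sets. Magel2, another MAGE gene, differed by -0.045 (SE 0.13) and Mkrn3, a ubiquitin ligase gene, by -0.078 (SE 0.17), with overlapping groups. Peg12, a gene of the Frat family, lay at 0.34 and 0.19 against 0.45 and 0.53, near the lowest values of the arrays. Magel2 and Mkrn3 changed sign when some arrays were left out, and Magel2 after a second quantile normalization.

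**Figure D3:**
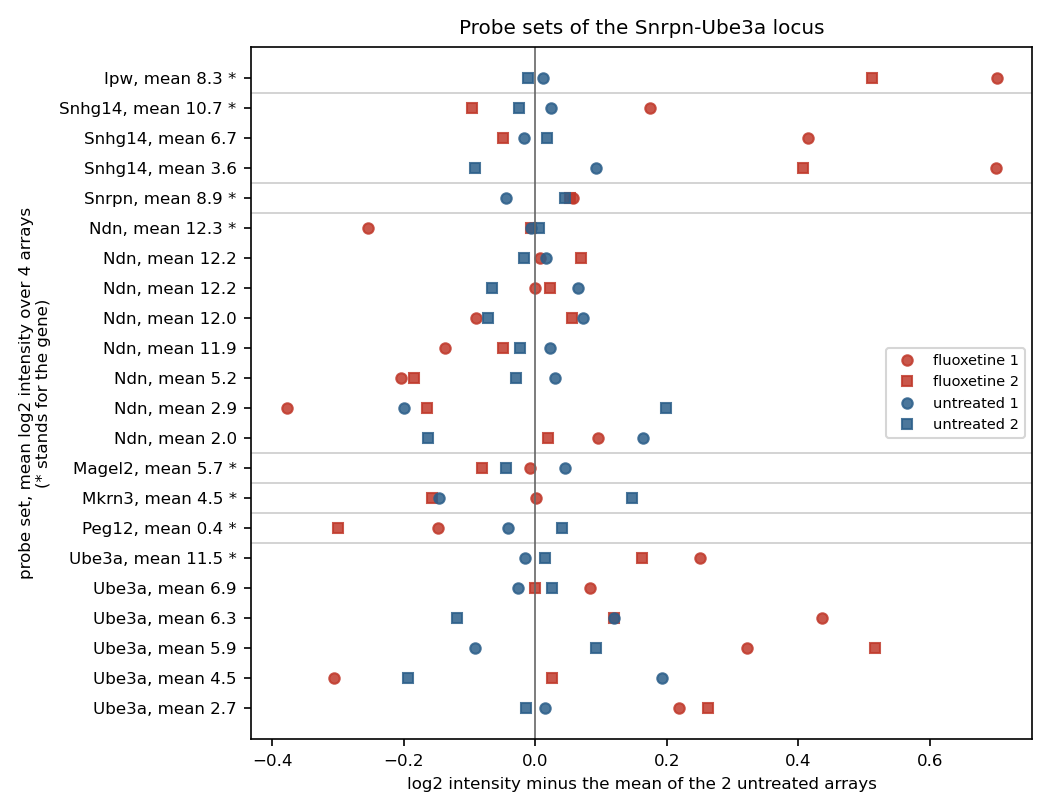
Each row is a probe set of the Snrpn-Ube3a locus with its mean log2 intensity, and each point is 1 array, plotted as the log2 intensity minus the mean of the 2 untreated arrays. Ipw, Snrpn, the dimmest Snhg14 probe set and 3 of the 6 Ube3a probe sets, with the bright one at 11.5, have both fluoxetine arrays to the right of both untreated arrays. Of all single probe sets 19.9% lay to the right in this sense and 20% to the left. Peg12 and 2 of the 8 Ndn probe sets have both fluoxetine arrays to the left, and the Ndn differences lie on either side of 0.

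Genes around the locus that are read from both copies were compared as a list of 13, of which 11 were measured. Their median difference was 0.0098, with 1 higher and 0 lower by an unadjusted p below 0.05, against 3.45% and 3.51% of all genes. The higher gene was the tight-junction scaffold gene Tjp1, with a difference of 0.16 (SE 0.052). Gabra5, a GABA-A receptor subunit gene of the same region, differed by 0.098 (SE 0.066) and Nipa2, a magnesium transporter gene, by 0.12 (SE 0.062). The deubiquitinase gene Otud7a differed by -0.095 (SE 0.052).

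At the Dlk1-Dio3 locus the maternal copy gives a string of noncoding RNAs, Meg3, Rian and Mirg, and the paternal copy gives the coding genes. Of its 6 members 4 were measured, and by the brightest probe set 1 was higher and 0 lower by an unadjusted p below 0.05. Among all genes 3.45% were higher and 3.51% lower in this sense. Mirg, which carries microRNAs, read 8.07 and 8.18 with fluoxetine and 7.70 and 7.60 without. The groups were well apart, with a difference of 0.48 (SE 0.091), or 1.39-fold (limma, adjusted p = 0.696). Its other probe set read 6.66 and 6.72 against 6.65 and 6.40, a difference of 0.17 (SE 0.13), so that the fluoxetine arrays were only just above untreated replicate 1.

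Meg3, a nuclear noncoding RNA, gave a different answer from different probe sets. The brightest read 11.68 and 11.83 with fluoxetine against 11.74 and 11.75 without, a difference of 0.010 (SE 0.057), or -0.025 after a second quantile normalization and -0.066 without fluoxetine replicate 2. All 10 others had differences above 0, from 0.049 to 0.83. In a limma fit over the 34945 single probe sets, 8 of the 11 were higher at an unadjusted p below 0.05, against 6.4% of all probe sets, and 0 were lower, against 3.04%. None of the 11 passed the adjustment over all probe sets, which 0.00286% of them did. The 11 read the same transcripts on the same 4 arrays and are not independent. The count was 3 without fluoxetine replicate 2, 5 without untreated replicate 2, 4 without the intensity trend, 6 after a second quantile normalization and 8 without either other array.

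The widest gap of Meg3 was at a probe set that read 10.16 and 10.03 with fluoxetine and 9.44 and 9.09 without, a difference of 0.83 (SE 0.11; limma over all probe sets, adjusted p = 0.331). Both fluoxetine arrays exceeded both untreated arrays there by more than the spread within a group. With the mean of all its probe sets Meg3 differed by 0.25, and without the probe sets that can match several transcripts the gene was represented by one with 0.18.

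Rian, the host of small nucleolar RNAs and microRNAs, was split in the same way. Its brightest probe set had both fluoxetine arrays below, at 12.81 and 12.83 against 12.95 and 12.88 (difference -0.089, SE 0.040), with an unadjusted p of 0.0620. That p fell under 0.05 after a second quantile normalization, among genes above the median level alone and without untreated replicate 2. In the other 3 the fluoxetine arrays were both above the untreated ones, with differences of 0.072, 0.34 and 0.69. The largest of these went with a low reading of 3.33 on untreated replicate 1, while the remaining arrays lay between 4.33 and 4.65. With the mean of all 4 probe sets the Rian difference was 0.25. Dlk1, a paternally expressed transmembrane protein of the Notch ligand type, read 6.15 and 6.13 against 6.24 and 6.24. Its groups did not overlap, but the difference of -0.10 (SE 0.12) was small, and a second, dim probe set gave -0.35.

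**Figure D4:**
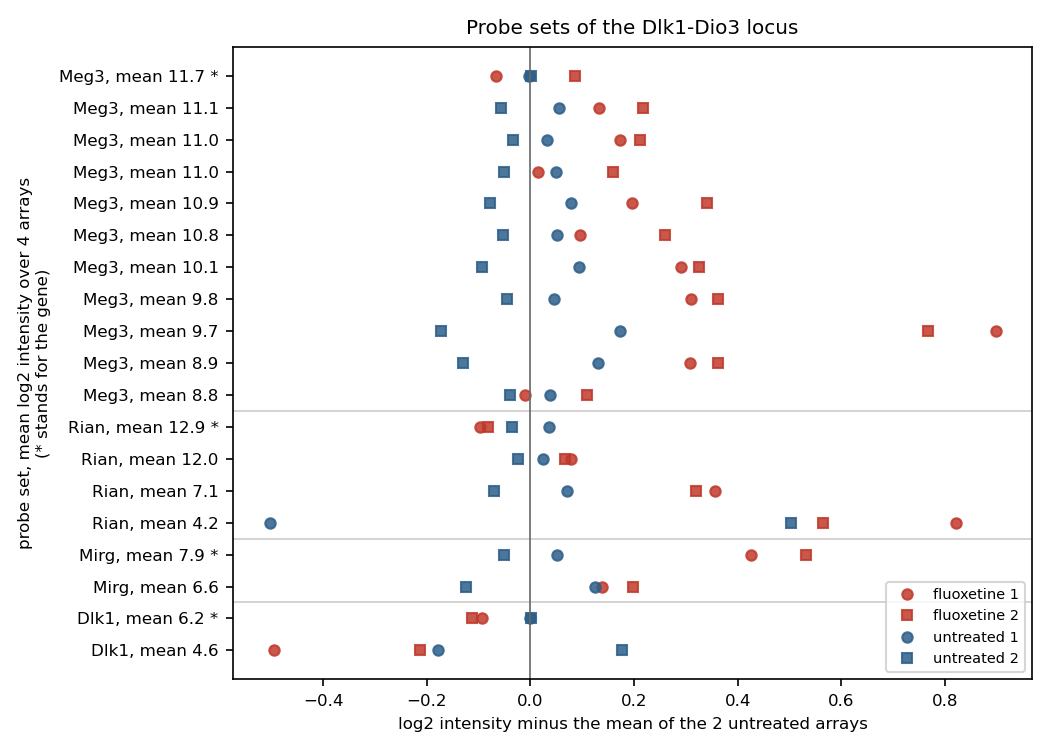
Each row is a probe set of the Dlk1-Dio3 locus with its mean log2 intensity, and each point is 1 array, plotted as the log2 intensity minus the mean of the 2 untreated arrays. In 13 of the 17 probe sets of Meg3, Rian and Mirg both fluoxetine arrays lie to the right of both untreated arrays, and both Dlk1 probe sets have both fluoxetine arrays to the left. Among all single probe sets 19.9% lay to the right in this sense and 20% to the left. Meg3 alone has 11 of the 17, and probe sets of the same gene are not independent. The brightest probe set of Meg3 has overlapping groups, with a difference of 0.010. That of Rian has both fluoxetine arrays to the left, with a difference of -0.089.

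The RefSeq tables place 19 mature microRNAs inside Mirg, 6 inside Rian and 3 inside Meg3. Mature microRNAs were not measured by these arrays. A few of those inside Mirg are shown because its host transcript had the second highest difference among the members. They are written 5' to 3' from RefSeq, build GRCm38.p6, with the seed, bases 2 to 8, in capitals.
miR-453: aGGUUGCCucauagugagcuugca
miR-496a-5p: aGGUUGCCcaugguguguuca
miR-154-5p: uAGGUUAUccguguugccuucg
miR-377-3p: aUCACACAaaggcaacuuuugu
miR-410-3p: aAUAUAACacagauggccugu
miR-453 and miR-496a-5p share their seed, the only seed that occurs more than 1 time among the 19 mature sequences tabled inside Mirg.

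Growth-related imprinted genes differed little. Igf2, a growth factor made in brain mainly by meninges and choroid plexus, was counted here as paternally expressed. The copy it is read from in those tissues was not tested. Igf2 read 9.34 and 9.51 with fluoxetine and 9.37 and 9.46 without. Its groups overlapped fully (difference 0.0097, SE 0.079; -0.026 after a second quantile normalization). The 7 measured choroid plexus markers had means of 6.09 and 5.51 with fluoxetine and 5.28 and 5.69 without, a median difference of 0.0087 and 0 members with an unadjusted p below 0.05. Of these Ttr, named after its values were seen, ran from 6.67 to 11.72 and was highest on fluoxetine replicate 1, and the other 6 differed by -0.24 to 0.21. Meningeal fibroblast markers had means of 7.43 and 7.47 with fluoxetine and 7.29 and 7.37 without. At an unadjusted p below 0.05, 3 of the 8 were higher and 0 lower, against 3.45% and 3.51% of all genes. Both fluoxetine arrays lay above both untreated arrays for 4 of the 8, against 15.5% of all genes. They lay below for 2, Slc6a13 at -0.15 and Col1a1 at -0.12, against 22.3%. Igf2r, the receptor that clears IGF2, differed by -0.026 (SE 0.071). Grb10, an adaptor of the insulin receptor that neurons read from the paternal copy, had both fluoxetine arrays at 9.75 and the untreated ones at 9.79 and 9.83, a difference of -0.062 (SE 0.056).

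The cell-cycle inhibitor gene Cdkn1c read 8.59 and 8.54 against 8.54 and 8.51, a difference of 0.036 (SE 0.072). Phlda2, a growth-restraining gene of placenta, differed by 0.024 (SE 0.14). Plagl1, a zinc-finger regulator of other imprinted genes, differed by 0.063 (SE 0.058). None of the 3 had an unadjusted p below 0.05. Phlda2 changed sign when an array was left out, and Plagl1 was at -0.14 without the probe sets that can match several transcripts. The wider insulin-like growth factor pathway was a list of 21 genes with 19 measured, and its median difference was 0.0036. By an unadjusted p below 0.05, 2 were higher and 0 lower, against 3.45% and 3.51% of all genes. Of the 19, 17 lay above the median level, where the shares were 5.73% and 2.17%. Irs2, an insulin receptor substrate, differed by 0.43 (SE 0.10) and read 8.81 and 8.57 against 8.31 and 8.21. Igfbp5, a binding protein of these growth factors, differed by 0.15 (SE 0.060), and by -0.01 at its other probe set. Igf2bp1, an RNA-binding protein gene, differed by -0.23 (SE 0.12) and Igfbp3 by -0.15 (SE 0.083).

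At the Peg3 locus, the zinc-finger gene Peg3 read 12.38 and 12.35 with fluoxetine and 12.35 and 12.33 without at its brightest probe set. This difference of 0.021 (SE 0.038) lay within the spread, and it was -0.0024 after a second quantile normalization. A dimmer probe set read 9.48 and 9.43 against 9.24 and 9.30, a difference of 0.19 with groups that did not overlap. Usp29, a ubiquitin protease gene, differed by 0.0061 (SE 0.084). Zim1, a maternally expressed zinc-finger gene, read 4.02 and 4.11 against 4.37 and 4.23, a difference of -0.23 (SE 0.16) at a dim signal.

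The Peg10 locus held the member with the largest difference. Asb4, a maternally expressed gene for a subunit of ubiquitin ligases, known from the hypothalamus, read 3.21 and 2.92 with fluoxetine and 4.01 and 3.80 without. The groups did not overlap (difference -0.84, SE 0.19; limma, adjusted p = 0.696). Its second probe set read 2.62 and 3.54 against 3.77 and 3.44, and there the groups overlapped. Only 8.33% of all genes had a lower mean signal, a range in which more genes were lower than higher with fluoxetine. The 9 measured markers of hypothalamus and septum had means of 6.99 and 7.04 with fluoxetine and 7.16 and 7.09 without. Of them 1, Avp, was lower at an unadjusted p below 0.05, against 3.51% of all genes. A difference above 0 was found for 3 of the 9 markers, against 7729 of 18193 genes. The part of these markers in the Asb4 result was not tested.

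The other members of that locus did not differ beyond their spread. Peg10, a retrotransposon-derived gene, read 3.09 and 3.59 against 3.48 and 3.29 (difference -0.045, SE 0.21). Sgce, the gene of epsilon-sarcoglycan, read 9.09 and 9.16 against 9.07 and 9.08, a difference of 0.053 (SE 0.066). Calcr, the calcitonin receptor gene, lay between 2.78 and 2.90 on all arrays. Peg10 and Calcr changed sign after a second quantile normalization, and Calcr also after subtraction of array medians.

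At the Mest locus, the paternally expressed hydrolase gene Mest read 8.87 and 8.99 with fluoxetine and 8.78 and 8.82 without. The fluoxetine arrays were higher by 0.13 (SE 0.074), with an unadjusted p of 0.128. Copg2, a coatomer subunit gene that runs toward Mest, differed by 0.049 (SE 0.080), or -0.053 without fluoxetine replicate 1. Trappc9, a trafficking gene whose intron holds Peg13, read 9.58 and 9.51 against 9.51 and 9.66, a difference of -0.044 (SE 0.072).

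The single-gene loci, meaning loci with 1 gene on this list and not loci with 1 imprinted gene, had 9 measured members. All lay above the median level, and 6 had a difference above 0, or 4 of 9 after a second quantile normalization. Among all genes at that level 4722 of 9096 had a difference above 0. None of the 9 members had an unadjusted p below 0.05. Both fluoxetine arrays were above both untreated arrays in 3 of the 9, against 21.8% of genes at that level, and below them in Grb10. Gnas, which encodes the alpha subunit of the stimulatory G protein, read 14.04 and 13.95 with fluoxetine and 13.90 and 13.93 without. Nap1l5, a gene of the nucleosome assembly family, read 13.27 and 13.21 against 13.19 and 13.15. Impact, a regulator of translation under amino acid shortage, read 12.62 and 12.56 against 12.52 and 12.51. In these 3 genes the groups did not overlap, and the differences were 0.076 (SE 0.039), 0.068 (SE 0.038) and 0.078 (SE 0.039). Gnas also had a dim probe set with a difference of -0.51 (SE 0.16), and the mean of its 5 probe sets gave -0.043. The mean of the 3 probe sets of Impact gave -0.043.

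Inpp5f, a phosphoinositide phosphatase gene, and Zdbf2, a zinc-finger gene that acts on feeding in young mice, differed by 0.013 (SE 0.052) and 0.021 (SE 0.072). Both were below 0 after a second quantile normalization. Nnat, the proteolipid gene neuronatin, was the most variable bright member, at 7.86 and 8.34 with fluoxetine and 8.04 and 8.54 without. Replicate 2 was the higher array of each group, and the difference of -0.19 (SE 0.20) became 0.050 without fluoxetine replicate 1 and 0.059 without untreated replicate 2.

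Sorted by the parental copy taken to be expressed, the 19 measured genes counted as paternal, with Igf2 among them, had a median difference of 0.021. The 12 counted as maternal had one of -0.0078. At an unadjusted p below 0.05, 1 paternal gene was higher and 0 lower, and 2 maternal genes were higher and 1 lower. Of all genes 3.45% were higher and 3.51% lower by that p. Above the median level the medians were 0.046 over 14 paternal and 0.023 over 8 maternal genes. The order of the 2 medians turned with the most variable probe sets, at -0.039 for paternal and 0.043 for maternal genes, and with the mean of all probe sets, at -0.027 and 0.030. Sorted by kind of transcript, the 5 noncoding RNAs had 2 higher members, Ipw and Mirg, and the 29 protein-coding genes 1 higher and 1 lower. All 5 noncoding RNAs lay above the median level, where 5.73% of all genes were higher and 2.17% lower. The median difference was 0.039 over the noncoding RNAs and 0.0097 over the protein-coding genes. Ipw and Mirg differed by 0.61 and 0.48, but Snhg14 by 0.039, Meg3 by 0.010 and Rian by -0.089. The mean over the noncoding RNAs was 10.44 and 10.40 with fluoxetine and 10.23 and 10.19 without. Over the protein-coding genes it was 8.37 on both fluoxetine arrays and 8.39 and 8.43 on the untreated arrays. These splits were not tested, since genes are not replicates.

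Another 45 imprinted genes formed a second list, of which 39 were measured. Their median difference was -0.039, with 1 higher and 0 lower by an unadjusted p below 0.05, against 3.45% and 3.51% of all genes. The fluoxetine arrays were both above the untreated ones for 3 of the 39 genes and both below for 8, against 15.5% and 22.3% of all genes. The higher one was Atp10a, a phospholipid flippase gene beside Ube3a, at 7.16 and 7.003 against 6.81 and 6.76 (difference 0.30, SE 0.11). Its 4 probe sets ran from -0.17 to 0.30. The next by p were Ppp1r9a, a regulator of protein phosphatase in neurons, at -0.084 (SE 0.038), the transcription factor gene Ascl2 at -0.28 (SE 0.13) and the insulin gene Ins2 at -0.20 (SE 0.10).

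Genes that set or keep imprints were a list of 28, with 25 measured, a median difference of 0.027, 3 higher and 2 lower by an unadjusted p below 0.05, against 3.45% and 3.51% of all genes. Tet3, an enzyme that oxidises methylated cytosine, read 6.41 and 6.33 with fluoxetine and 5.90 and 5.98 without, a difference of 0.43 (SE 0.12). Arid4a and Arid4b, chromatin proteins that act on the imprint of the Snrpn locus, differed by 0.28 (SE 0.076) and 0.20 (SE 0.060). The DNA methyltransferase gene Dnmt3b differed by -0.40 (SE 0.14) at a dim signal, and by 0.00 at its other probe set. The fifth of these genes, Dnmt3a, named after its values were seen, read 9.47 on both fluoxetine arrays against 9.57 and 9.71, a difference of -0.17 (SE 0.069), and its 5 probe sets ran from -0.18 to 0.29. None of the 5 genes passed adjustment over all genes (limma, lowest adjusted p = 0.696).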

How the data were processed

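The authors deposited RMA values on the log2 intensity scale for each probe set of 4 arrays; the submitters' processing notes name RMA, affy and limma, without versions. That the scale is log2 follows from the range of the values, -0.08 to 15.14. The background correction is unstated in the sources used here. Of 45101 probe sets, 64 were controls, 34945 had 1 symbol and were used, 932 had several symbols and 9160 others had no annotation. Low values were not filtered. Signals of different probe sets were not compared as abundances.

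Groups were compared in R 4.3.3 with limma 3.58.1, using lmFit and eBayes with a trend on intensity. Tests were two-sided, and p-values were adjusted by Benjamini-Hochberg over 18193 genes. There were 2 residual and 5.15 prior degrees of freedom. The code was tested on simulated data. Alternatives were other normalizations, probe set choices and variance models, and each array left out. The members and lists were chosen with earlier results of these data known. Every measured member is named, and of other lists up to 4 genes with the smallest p.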

Additional observations from a re-analysis of the deposited data

How the results depend on the processing

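The number of arrays limits the precision, and no alternative background correction was run. Ipw and Mirg kept their direction and an unadjusted p below 0.05 under all 12 alternatives, Asb4 under the 11 that tested it and Ube3a under all but the mean of its probe sets. No alternative put a member past adjustment over all genes. No paired analysis was possible because the labels give no replicate numbers that groups share. Where an array was left out, the lone array of its group was assumed to vary like the others. The cause of the changes below was not tested.

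After a second quantile normalization 2 members were lower at an unadjusted p below 0.05, against 1103 of 18193 genes. The medians were -0.0017 over all and -0.00093 over paternal members, and those on the other side of 0 were Snhg14 at -0.00093, Magel2 at 0.0080, Meg3 at -0.025, Igf2 at -0.026, Peg3 at -0.0024, Usp29 at -0.012, Peg10 at 0.029, Calcr at 0.042, Inpp5f at -0.023 and Zdbf2 at -0.0096. With array medians subtracted the medians were 0.049 and 0.058, with Calcr at 0.0072 and Igf2r at 0.011. With the mean of all probe sets they were -0.021 and -0.027, with Rian at 0.25, Igf2 at -0.014, Usp29 at -0.15, Gnas at -0.043, Plagl1 at -0.027 and Impact at -0.043. With the most variable probe set 5 members were higher and 2 lower by that p, against 1187 and 584 of 18193 genes. The paternal and maternal medians were then -0.039 and 0.043, with Rian at 0.69, Igf2 at -0.039, Usp29 at -0.31, Trappc9 at 0.055, Gnas at -0.51, Plagl1 at -0.00027 and Impact at -0.20. Without probe sets that can match several transcripts the differences put Ndn at 0.011, Gnas at -0.016 and Plagl1 at -0.14. Among genes above the median level alone, 2 members had both fluoxetine arrays below, against 16.9% of those genes. The medians there were 0.036 over all and 0.046 over paternal members. Without the intensity trend 2 members were lower at an unadjusted p below 0.05, against 913 of 18193 genes. By that p, 4 probe sets of Meg3 and 6 of Meg3, Rian and Mirg were higher, against 4.45% of all probe sets. Tests of single probe sets were chosen after seeing the data.

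With each array left out in turn, 1 to 2 members were lower, 12 to 15 had the fluoxetine arrays above and 8 to 13 below, where fewer arrays make such an arrangement more frequent. Of all genes, 25.1% to 37.3% had the fluoxetine arrays above in these settings and 34.9% to 46.0% below. Medians ran from 0.0026 to 0.037 over all members, 0.010 to 0.055 over paternal and -0.063 to 0.0076 over maternal members. Probe sets higher at an unadjusted p below 0.05 numbered 3 to 8 for Meg3 and 4 to 10 for Meg3, Rian and Mirg. Differences ran from -0.096 to 0.17 for Snhg14, -0.090 to 0.00056 for Magel2, -0.22 to 0.069 for Mkrn3, -0.066 to 0.086 for Meg3, -0.078 to 0.097 for Igf2, -0.080 to 0.13 for Phlda2, -0.029 to 0.041 for Usp29, -0.30 to 0.21 for Peg10, -0.083 to 0.024 for Calcr, -0.053 to 0.15 for Copg2, -0.12 to 0.032 for Trappc9, -0.073 to 0.021 for Igf2r, -0.44 to 0.059 for Nnat, -0.042 to 0.068 for Inpp5f and -0.027 to 0.068 for Zdbf2.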
